A study of Mus musculus with 20 samples.

Results

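The tumour necrosis factor (TNF) superfamily was followed in white adipose tissue (WAT) and liver of staggerer and wild-type mice on a high-fat diet. Members were all array probes whose gene name is Tnf or begins with Tnfsf (ligands) or Tnfrsf (receptors), which gave 50 of the 41174 probes on the array and 36 of its 27962 gene names. A member was tested in a tissue when 4 or more of that tissue's 10 arrays detected its probe well above background. That left 46 probes of 34 genes in WAT and 30 probes of 24 genes in liver, and all 30 liver probes were also tested in WAT. The names are those of the array design and some are old: Tnfsf7 is now Cd70, Tnfrsf7 is Cd27 and Tnfrsf19l is Relt. Tnfsf5ip1 is now Psmg2, a proteasome assembly chaperone, which is neither a ligand nor a receptor and is a member by its old name only. The 36 names therefore held 13 ligands, 22 receptors and this 1 other gene.

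The 4 groups were WAT and liver of RORαsg/sg mice (sg/sg), which carry the staggerer deletion of Rora in the germ line and so in every cell type, and WAT and liver of wild-type (WT) mice. All were male C57BL/6 mice aged 5 months, and both genotypes were kept on a 35% fat diet, which lasted 6 weeks. RNA came from 5 mice of each genotype, and each group had 5 one-colour arrays. The fat depot, and which liver and WAT arrays share a mouse, are not given in the sources used here. The comparison asks which members of the family differ in each tissue of mice that lack the nuclear receptor RORα.

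A level is a log2 intensity relative to its own array's 75th percentile, so that 0 equals that percentile. That percentile was 1352 to 2053 intensity units on sg/sg WAT arrays, 1936 to 2598 on WT WAT arrays, 648 to 901 on sg/sg liver arrays and 817 to 1090 on WT liver arrays. All 3 Rora probes were lower on every sg/sg array than on every WT array in both tissues, with log2 fold changes between -2.88 and -2.72. Where they lie relative to the deletion is not settled here. The summed linear level of 9 hepatocyte markers was 3428 to 4078 times the percentile in sg/sg liver and 2368 to 3290 times in WT liver. In WAT the sum of 10 adipocyte markers was 1078 to 1484 in sg/sg mice and 636.2 to 1010 in WT mice. Each tissue filled 3 array slides. In WAT every slide held both genotypes, whereas in liver only slide 2 did, with 3 sg/sg arrays and 1 WT array.

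TNF superfamily ligands are mostly membrane proteins that act as trimers, some of them after shedding, and their receptors signal through death domains or through TRAF adaptors to NF-kB and cell death pathways. In obese fat, TNF is known as a macrophage product that impairs insulin signalling in adipocytes. Several other receptors of the family control lymphocytes, osteoclasts and the survival of epithelial and neural cells. A log2 fold change below is sg/sg over WT with its standard error (SE), and adjusted p is limma's with Benjamini-Hochberg adjustment over all probes tested in that comparison, called at 0.05, with n = 5 arrays per genotype.

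In WAT of sg/sg mice Tnf and 10 receptors were lower and 2 receptors, Tnfrsf19 and Tnfrsf8, were higher, whereas no other ligand passed the test. Tnfrsf8 was well above background on 4 sg/sg arrays and 1 WT array, so it entered the test through its sg/sg arrays and its call is not independent of that filter. Called at probe level were 17 of 46 members (37%), 2 higher and 15 lower. Of all probes tested in WAT, 21.9% were called, 12.8% higher and 9.14% lower. Taking each gene by its brightest probe, 13 of 34 genes were called (38.2%). Receptors made up 12 of these, out of 22 receptor genes, with a median log2 fold change of -0.41 against 0.08 for all probes tested. Among the 11 ligand genes tested, 1 was called and the median was 0.18. The genotypes did not overlap for 13 of the 46 probes, 1 higher and 12 lower, against 20.8% of all probes in WAT (12.1% higher and 8.71% lower). With normexp background correction, which adds an offset of 50 units and moved the median of all WAT probes to 0.49, 3 member probes were called, Tnfrsf1b and Tnfrsf21 lower and Tnfrsf19 higher. Under that correction 9 of the 17 called probes kept their sign, and 13 of 17 did so relative to the moved median.

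**Figure D1:**
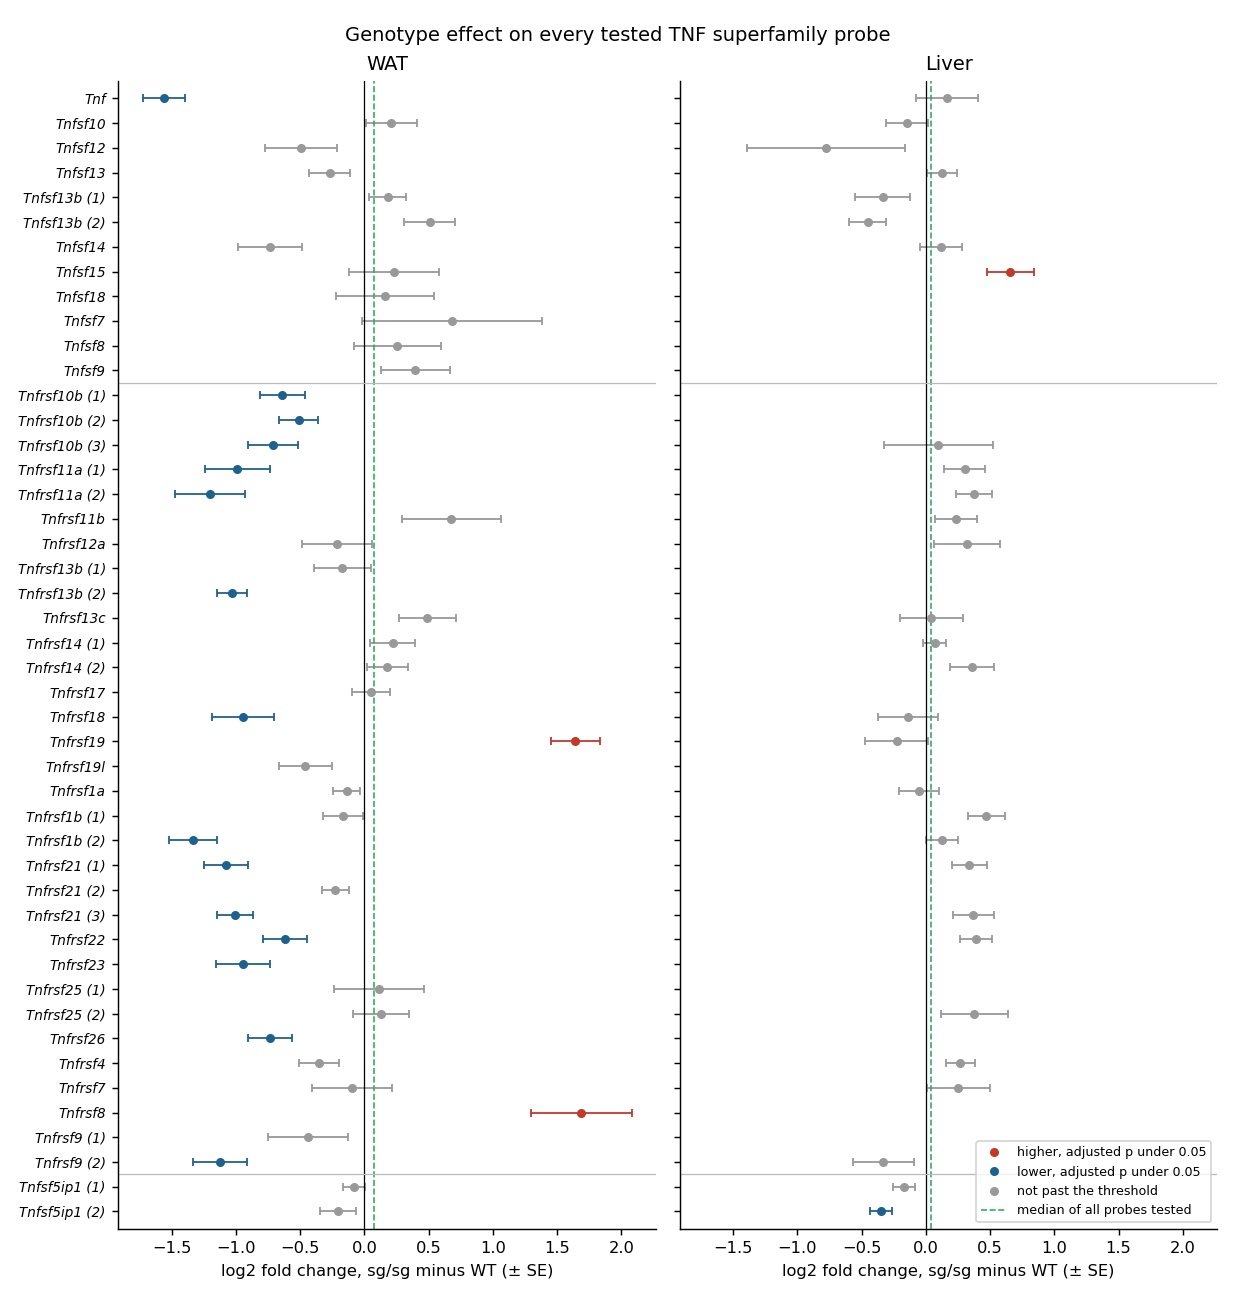
Log2 fold change of sg/sg over WT (x axis, with SE bars, n = 5 arrays per genotype) for every tested member probe, in WAT (left) and liver (right), with ligands on top, receptors in the middle and Tnfsf5ip1 at the bottom. Red and blue points passed an adjusted p of 0.05, the dashed line is the median of all probes tested, and numbers in brackets tell apart probes of a gene. In WAT 15 probes lie to the left as calls and 2 to the right, and in liver 1 lies on each side; with normexp background correction 13 of the 17 WAT calls keep their sign relative to the moved median of all probes, and 9 of 17 in absolute terms.

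Tnf itself, the founding ligand, was lower in sg/sg WAT. Its probe is printed on 10 spots of each array and lies on chromosome 17, at chr17:33296067-33296126 on the minus strand of build mm7. No annotation of that build was used here, so the exon under any probe is not stated. The first 30 bases of its 60 are shown because this probe carries the ligand result:
Tnf: tgggctttccgaattcactggagcctcgaa
On the 5 sg/sg WAT arrays its level was -4.72, -5.12, -4.78, -5.16 and -4.48. The 5 WT WAT arrays gave -3.36, -2.90, -3.55, -3.35 and -3.32. Every sg/sg array lay below every WT array, and the gap between the groups exceeded the range within either one. The change was -1.56 (SE 0.16, 2.95-fold lower, adjusted p = 0.00066). Within the 3 slides the differences were -1.69, -1.32 and -1.59. As deposited, the spot intensity was 37.7 to 91.8 units in sg/sg WAT and 189 to 348 units in WT WAT. With normexp correction the difference was -0.020, which is -0.51 relative to the median of all probes under that correction, and the call was lost (adjusted p = 0.981).

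TNF has a ubiquitous receptor with a death domain, TNFR1 (Tnfrsf1a), and an inducible receptor without one, TNFR2 (Tnfrsf1b), which is prominent on leukocytes and endothelium. Tnfrsf1a, at chr6:125388661-125388720, read 4.32, 4.09, 4.37, 4.54 and 4.40 in sg/sg WAT. In WT WAT it read 4.53, 4.54, 4.32, 4.52 and 4.52. These ranges overlapped, and the difference of -0.14 (SE 0.10, adjusted p = 0.379) did not pass the test, with a range over all alternatives of -0.32 to -0.07.

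Tnfrsf1b was measured by a pair of probes that disagreed in size. The first 30 bases of each are printed to show which stretch of the transcript each one reports:
Tnfrsf1b (10 spots, chr4:144626830-144626889): gcaattgcactgtgtgctggacagaattcc
Tnfrsf1b (1 spot, chr4:144635392-144635965): ctggtgaactgcttcatcctggtgcagagg
The 60 bases of the second probe span 574 bases of the genome, so it crosses a splice junction, while the first lies on 60 contiguous bases. The 10-spot probe read -0.61, -0.37, -0.02, -0.69 and -0.02 on sg/sg WAT arrays. It read 1.11, 1.48, 0.75, 0.79 and 0.83 on WT WAT arrays. All sg/sg values were below 0 and all WT values above it, and Tnfrsf1b by this probe fell by 1.33 on the log2 scale (SE 0.19, 2.52-fold, adjusted p = 0.0016), with -1.45, -0.85 and -1.75 within the 3 slides. By the junction probe it read -2.57, -2.83, -3.24, -3.18 and -3.17 on sg/sg WAT arrays. On WT WAT arrays that probe read -2.65, -2.61, -3.11, -2.88 and -2.92. The groups overlapped there, and the difference of -0.17 (SE 0.16, adjusted p = 0.497) did not pass, turning to 0.43 with normexp correction and to 0.17 within slide 3. Whether the probes report different transcript forms was not tested.

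**Figure D2:**
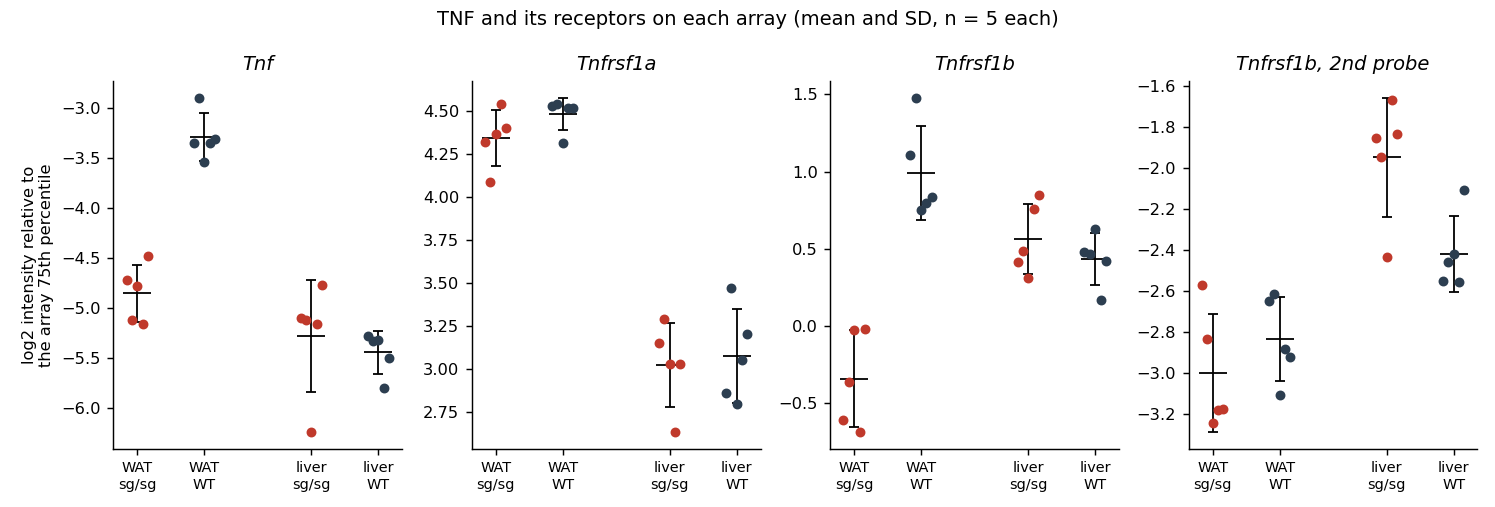
Level of Tnf, Tnfrsf1a and both Tnfrsf1b probes (y axis, log2 intensity relative to the array's 75th percentile) on each array, sg/sg in red and WT in black, with bars for mean and SD (n = 5 each). In WAT the groups separate for Tnf and for the first Tnfrsf1b probe, overlap for Tnfrsf1a and the second Tnfrsf1b probe, and in liver none of the 4 probes passed the test; tissues were scanned apart, so heights are compared within a tissue.

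Among the other ligands tested in WAT none passed. Tnfsf14 (LIGHT, which binds the receptor HVEM) came nearest, with -3.00, -2.59, -2.41, -3.14 and -2.79 on sg/sg arrays. WT arrays gave -2.11, -2.69, -1.77, -2.37 and -1.33. The ranges overlapped and the difference was -0.73 (SE 0.25, adjusted p = 0.0605). Tnfsf13 (APRIL) and Tnfsf13b (BAFF) act on B and plasma cells. Tnfsf13 differed by -0.27 (SE 0.16), while the brighter of 2 Tnfsf13b probes differed by 0.18 (SE 0.14) and the dimmer by 0.51 (SE 0.20, adjusted p = 0.0915). Tnfsf10 (TRAIL, an inducer of apoptosis) differed by 0.21 (SE 0.20), and Tnfsf12 (TWEAK) by -0.49 (SE 0.28). Ligands of T cell receptors were measured as well. Tnfsf18 (GITR ligand), well above background on 3 of 5 arrays in each genotype, differed by 0.16 (SE 0.38), and Tnfsf7 (CD70) by 0.68 (SE 0.70). The remaining 3 were Tnfsf8 (CD30 ligand) at 0.26 (SE 0.34), Tnfsf9 at 0.40 (SE 0.27) and Tnfsf15 (TL1A) at 0.23 (SE 0.35). Tnfsf4 (OX40 ligand) and both probes of Tnfsf11 (RANK ligand) were below the limit of detection used for testing in both tissues. Just outside the rule in WAT stood Tnfsf4, well above background on 0 sg/sg arrays and 3 WT arrays.

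TACI (Tnfrsf13b), a receptor for BAFF and APRIL on B cells and macrophages, was lower in sg/sg WAT by 1 of its 2 probes. The sequences are set side by side because only the second gave the call:
Tnfrsf13b (chr11:61223024-61228432): gcaccagggatctgagcatggtccaggatt
Tnfrsf13b (chr11:61230555-61230614): agacgaacctatttctagtctttaagatct
The second probe read -2.42, -2.45, -2.03, -2.20 and -2.13 on sg/sg arrays. On WT arrays it read -1.27, -0.96, -1.31, -1.22 and -1.31. Its groups were far apart for their spread, at -1.03 (SE 0.12, 2.045-fold lower, adjusted p = 0.00077), and the first probe differed by -0.17 (SE 0.22). That first probe was dim, at 8.66 to 26.4 intensity units in sg/sg WAT and 16.4 to 29.7 in WT WAT. The second read 294 to 500 units in sg/sg WAT and 804 to 1340 in WT WAT. The 60 bases of the first span 5409 bases of the genome, so it crosses a splice junction. The other receptors of these ligands did not pass: BAFF receptor (Tnfrsf13c), the main survival receptor of B cells, stood at 0.49 (SE 0.22, adjusted p = 0.148) and BCMA (Tnfrsf17), a plasma cell receptor, at 0.05 (SE 0.15).

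DR6 (Tnfrsf21), a receptor with a death domain, was lower by 2 of 3 probes. The brightest, at chr17:41207206-41207263, read -1.11, -1.20, -1.04, -0.30 and -0.82 on sg/sg arrays. On WT arrays it read 0.18, 0.20, 0.40, 0.07 and 0.06. All sg/sg values lay below all WT values, and the change was -1.08 (SE 0.17, 2.11-fold lower, adjusted p = 0.00233), against -1.01 (SE 0.14, adjusted p = 0.00148) for the neighbouring probe and -0.23 (SE 0.11, adjusted p = 0.162) for the third one. RANK (Tnfrsf11a), which drives osteoclast formation, read -1.77, -1.78, -1.66, -1.88 and -1.68 on sg/sg arrays by its brighter probe. WT arrays spread more widely, at -0.26, 0.47, -1.13, -0.87 and -0.94. Every WT value was higher than every sg/sg value. Tnfrsf11a changed by -1.20 (SE 0.27, 2.30-fold lower, adjusted p = 0.0117) and by -0.99 (SE 0.25, adjusted p = 0.0201) with its dimmer probe, which turned to 0.020 with normexp correction. Osteoprotegerin (Tnfrsf11b), the soluble decoy for RANK ligand, differed by 0.68 (SE 0.39, adjusted p = 0.242), with WT arrays as far apart as -2.08 and 0.15.

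The receptors that costimulate T cells did not move as a block. CD137 (Tnfrsf9) read -6.60, -6.75, -6.40, -6.12 and -5.82 on sg/sg arrays by its brighter probe. WT arrays gave -5.14, -5.62, -5.25, -5.36 and -4.70. The groups did not overlap, and Tnfrsf9 changed by -1.13 (SE 0.21, 2.18-fold lower, adjusted p = 0.00504) but by 0.80 with normexp correction (0.31 relative to the moved median); its dimmest probe differed by -0.44 (SE 0.31). GITR (Tnfrsf18), found on regulatory T cells among others, read -1.93, -1.45, -1.45, -1.62 and -1.39 on sg/sg arrays. On WT arrays it read -0.53, -1.48, -0.41, -0.66 and -0.02. One WT array fell inside the sg/sg range and the others lay above it, with a change of -0.95 (SE 0.24, 1.93-fold lower, adjusted p = 0.0198). CD30 (Tnfrsf8) went the other way. It read -6.44, -6.98, -7.98, -7.77 and -7.50 on sg/sg arrays, of which 4 were well above background. WT arrays read -9.84, -8.73, -9.63, -8.93 and -7.98, with 1 well above background. The fitted difference was 1.69 (SE 0.39, adjusted p = 0.0133), and 0.24 to 2.39 within slides. Since 4 WT arrays were not well above background, no fold is given for Tnfrsf8. OX40 (Tnfrsf4) differed by -0.36 (SE 0.15, adjusted p = 0.128), CD27 (Tnfrsf7) by -0.10 (SE 0.31), and the DR3 gene Tnfrsf25 by 0.13 (SE 0.22). HVEM (Tnfrsf14), the receptor of LIGHT, differed by 0.22 (SE 0.18) and 0.18 (SE 0.16) with its 2 probes.

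Receptors of TRAIL and their neighbours on chromosome 7 were lower in sg/sg WAT under the main processing. With normexp correction all their estimates were above 0, while the median of all WAT probes stood at 0.49, so the values below are also given relative to that median. Tnfrsf10b, the death receptor for TRAIL in mice, had 3 probes, of which the brightest read -3.41, -3.29, -3.57, -4.12 and -3.22 on sg/sg arrays. On WT arrays it read -2.87, -3.16, -2.62, -2.47 and -2.92. The groups came close without overlapping. Its changes were -0.71 (SE 0.19, 1.64-fold lower, adjusted p = 0.0254), -0.64 (adjusted p = 0.0273) and -0.51 (adjusted p = 0.0365), against 0.16, 0.30 and 0.83 with normexp correction. Relative to the moved median these are -0.32, -0.18 and 0.34. The call for the probe at -0.51 was lost in 15 of 22 alternatives, those with fewer arrays included, and its sign turned in 1.

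Tnfrsf22 and Tnfrsf23, decoy receptors for TRAIL in mice, and Tnfrsf26, a related receptor, have probes within 60.5 kb of each other on the minus strand, at chr7:140035365-140095863. The probes share at most 41.2% of bases over any overlap of 30 bases or more. Tnfrsf23 read -5.74, -6.40, -6.43, -5.40 and -5.99 on sg/sg arrays. It read -5.10, -4.66, -5.12, -5.07 and -5.28 on WT arrays. The groups were separate but close, with -0.94 (SE 0.21, 1.92-fold lower, adjusted p = 0.011), against 0.695 with normexp correction, or 0.21 relative to the moved median. Tnfrsf26 read -4.47, -4.95, -4.79, -4.40 and -4.19 on sg/sg arrays. WT arrays read -3.76, -3.53, -4.20, -3.83 and -3.81. The highest sg/sg array lay just above the lowest WT array, and the change was -0.74 (SE 0.17, 1.665-fold lower, adjusted p = 0.0131), against 0.50 with normexp correction, or 0.012 relative to the moved median. Tnfrsf22 read -4.23, -4.30, -4.41, -3.53 and -3.99 on sg/sg arrays. On WT arrays it read -3.35, -3.26, -3.55, -3.50 and -3.71. One sg/sg array lay among the WT values, and the change was -0.62 (SE 0.17, 1.54-fold lower, adjusted p = 0.0274), against 0.37 with normexp correction, or -0.12 relative to the moved median. That call was lost in 12 of 23 alternatives, and the sign turned in 1.

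TROY (Tnfrsf19), a receptor known from neural and epithelial development, was the clearest increase in sg/sg WAT. Its probe, at chr14:55831784-55831843 on the minus strand, read -3.00, -3.29, -2.61, -3.41 and -3.18 on sg/sg arrays. On WT arrays it read -4.98, -4.48, -5.08, -4.35 and -4.80. The groups were well separated. The change was 1.64 (SE 0.19, 3.12-fold higher, adjusted p = 0.00078), with 1.68, 1.90 and 1.42 within the 3 slides and 1.81 with normexp correction (adjusted p = 0.0267). A second probe for this gene was too dim to be tested. No ligand among the members is given here for Tnfrsf19, Tnfrsf21 or Relt. Fn14 (Tnfrsf12a), the TWEAK receptor, differed by -0.21 (SE 0.27) and Relt (Tnfrsf19l) by -0.46 (SE 0.20, adjusted p = 0.136).

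**Figure D3:**
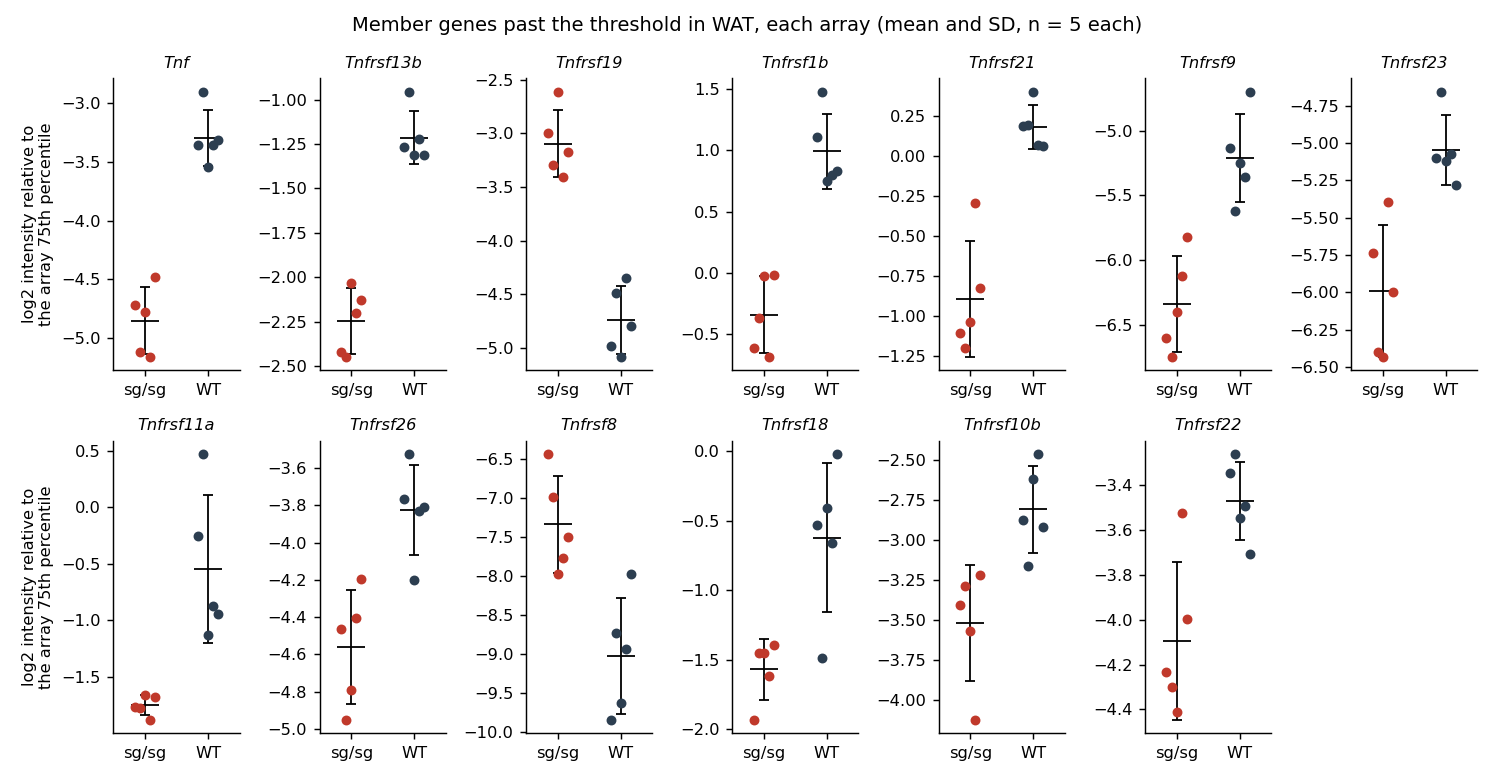
Level on each WAT array (y axis, log2 intensity relative to the array's 75th percentile) of the 13 member genes called in WAT, each by its brightest probe, sg/sg in red on the left and WT in black on the right, with mean and SD (n = 5 each). Tnfrsf19 and Tnfrsf8 are higher in sg/sg and the other 11 lower; Tnfrsf18, Tnfrsf22, Tnfrsf26 and Tnfrsf8 overlap between genotypes, and with normexp background correction Tnfrsf9, Tnfrsf23 and Tnfrsf26 are at 0.31, 0.21 and 0.012 relative to the moved median, Tnfrsf10b and Tnfrsf22 at -0.32 and -0.12.

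Among probes of the same gene in WAT, 10 genes had several tested probes. All of them were called for 2 genes, Tnfrsf10b and Tnfrsf11a, some for 4 genes and none for 4 genes. The 4 split genes were Tnfrsf1b, Tnfrsf9, Tnfrsf13b and Tnfrsf21.

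In liver Tnfsf15 was called higher and Tnfsf5ip1 lower in sg/sg, and no other member was called. Of 30 member probes 2 were called (6.67%), 1 higher and 1 lower, against 14.6% of all probes tested in liver (8.1% higher and 6.49% lower). With median scaling the calls over all liver probes split into 835 higher and 2315 lower, against 1999 and 1602 with the main scaling. Groups did not overlap for 2 probes, 1 higher and 1 lower, against 12.2% of all liver probes (6.62% higher and 5.56% lower). At an unadjusted p under 0.05 there were 9 of 30 members, against 7992 of all 24675 probes. No receptor was called. Estimates were above 0 for 16 of 20 receptor probes, with a median of 0.26 against 0.04 for all probes. With each gene taken by its brightest probe, 12 of 16 receptors were above 0, with a median of 0.18. The share of all liver probes above 0 is not given here. Within slide 2, the only liver slide with both genotypes, receptor estimates moved in both directions. The junction probe of Tnfrsf1b went from 0.47 to 0.03, and the dimmer Tnfrsf11a probe from 0.30 to -0.08. The brightest Tnfrsf21 probe went from 0.34 to 0.52. Tnfsf15, a ligand made by endothelial cells that binds DR3, read -3.02, -2.39, -2.73, -3.19 and -3.06 in sg/sg liver. In WT liver it read -3.59, -3.41, -4.03, -3.44 and -3.21. The lowest sg/sg array lay just above the highest WT array. The difference was 0.66 (SE 0.18, 1.58-fold higher, adjusted p = 0.0374), and 0.50 within slide 2, where no probe on the array was called. The Tnfsf15 call was lost in 15 of 21 alternatives, among them quantile normalization (adjusted p = 0.0529), median scaling (adjusted p = 0.056) and slide as a random block (adjusted p = 0.0563). Of 12 endothelial markers 4 were higher in sg/sg liver (Egfl7, Cldn5, Tie1 and Esam) and 0 lower, and the list summed to 34.5 to 37.3 in sg/sg liver and 25.7 to 34.1 in WT liver. Their part in the Tnfsf15 difference was not tested. Its receptor gene Tnfrsf25 differed by 0.38 (SE 0.26). The call for Tnfsf5ip1 came from the dimmer of its 2 probes, which read 0.31, 0.14, 0.17, 0.22 and 0.37 in sg/sg liver. WT liver gave 0.58, 0.82, 0.56, 0.54 and 0.46. The change was small, at -0.35 (SE 0.09, 1.27-fold lower, adjusted p = 0.0279), and the brighter probe differed by -0.17 (SE 0.09).

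Tnf in liver stood at the edge of detection, well above background on 1 sg/sg array and 3 WT arrays. It read -5.10, -5.13, -6.24, -5.17 and -4.77 in sg/sg liver. In WT liver it read -5.28, -5.33, -5.32, -5.80 and -5.50. The difference of 0.17 (SE 0.24, adjusted p = 0.67) was smaller than the spread among the sg/sg arrays. Tnfrsf1a read 3.15, 3.29, 3.03, 2.63 and 3.03 in sg/sg liver. WT liver gave 2.86, 3.47, 2.80, 3.05 and 3.20. The groups lay over each other, at -0.05 (SE 0.15, adjusted p = 0.843), which turned to 0.047 without WT replicate 2 and to 0.046 without sg/sg replicate 4.

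Tnfrsf1b in liver read 0.42, 0.49, 0.31, 0.76 and 0.85 on sg/sg arrays by its 10-spot probe. WT arrays read 0.48, 0.47, 0.63, 0.17 and 0.42. The difference was 0.13 (SE 0.12, adjusted p = 0.505) and -0.018 within slide 2. By the junction probe, sg/sg liver arrays read -1.85, -1.95, -2.43, -1.67 and -1.84. WT liver arrays read -2.55, -2.46, -2.42, -2.55 and -2.11. One sg/sg array lay among the WT values, and 0.47 (SE 0.15, adjusted p = 0.0531) just missed the threshold. Tnfrsf22, at 0.39 (SE 0.12, adjusted p = 0.0578), also came close. Within slide 2, the only liver slide with both genotypes, these differences were 0.029 for the junction probe and 0.14 for Tnfrsf22. The dimmer Tnfsf13b probe was not well above background on any sg/sg liver array and was on 4 WT arrays. Its means were -5.42 in sg/sg liver and -4.97 in WT liver, and the genotypes overlapped (adjusted p = 0.0583, not called). Tnfrsf9 was likewise detected on 0 sg/sg and 4 WT liver arrays, with means of -5.31 in sg/sg and -4.98 in WT liver, and the genotypes overlapped there too (adjusted p = 0.358, not called). With only an upper bound in sg/sg liver, no fold is given for either probe. Just outside the rule in liver stood Tnfrsf26, detected on 1 sg/sg array and 2 WT arrays with means of -4.86 in sg/sg and -5.11 in WT liver.

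The genotype effect differed between WAT and liver for 11 of the 30 probes tested in both, 2 more positive and 9 more negative in WAT. Over all 24344 probes in this test 19.9% were called, 10.5% more positive and 9.38% more negative in WAT. For Tnf the effect in WAT minus that in liver was -1.73 (SE 0.30, adjusted p = 5.9e-04). That call was lost with slide as a fixed block and with normexp correction, which gave -0.24. In liver Tnf was well above background on 1 sg/sg array and 3 WT arrays only, so the size of its difference is not fully measured. Tnfrsf1b gave -1.46 (SE 0.23, adjusted p = 2.3e-04) with the 10-spot probe and -0.64 (SE 0.22, adjusted p = 0.0442) with the junction probe. That second call was lost in 20 of 29 alternatives, and the sign turned in 1, to 0.020 with normexp correction. For Tnfrsf21 it was -1.41 (SE 0.22) and -1.38 (SE 0.21), and for Tnfrsf11a -1.58 (SE 0.31) and -1.29 (SE 0.31). Both of these receptors had positive estimates in liver that did not pass, 0.34 and 0.37 for Tnfrsf21 and 0.38 and 0.30 for Tnfrsf11a. Tnfrsf19 went the other way, with 1.87 (SE 0.32, adjusted p = 5.3e-04) and a liver estimate of -0.23 that did not pass.

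The remaining 3 tissue differences were those of Tnfrsf22, Tnfrsf4 and a Tnfsf13b probe. Tnfrsf22 gave -1.02 (SE 0.21, adjusted p = 0.0026), and 0.058 with normexp correction. Tnfrsf4, called in neither tissue, gave -0.63 (SE 0.19, adjusted p = 0.0251). It read -2.14, -2.06, -2.24, -1.66 and -2.14 in sg/sg WAT. In WT WAT it read -1.76, -2.03, -1.61, -1.75 and -1.31. In sg/sg liver it read -1.91, -2.06, -2.15, -1.99 and -2.25, and in WT liver -2.17, -2.63, -2.21, -2.46 and -2.25. The genotypes overlapped in both tissues. The dimmer Tnfsf13b probe, which is counted among the 11, gave 0.96 (SE 0.25, adjusted p = 0.0104). It was well above background on 0 sg/sg liver arrays, so its liver effect, and with it the size of this difference, is not fully measured. The brighter Tnfsf13b probe gave 0.52 (SE 0.26, adjusted p = 0.178) and was not called. The dimmer one read -4.20, -4.06, -3.94, -3.88 and -4.43 in sg/sg WAT. In WT WAT it read -4.08, -4.66, -5.22, -4.57 and -4.54. Tissue and slide cannot be told apart, and arrays that may share a mouse were treated as separate samples, so p-values for the tissue difference carry that limit and only the genotype effects, each taken within its tissue, are compared here.

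**Figure D4:**
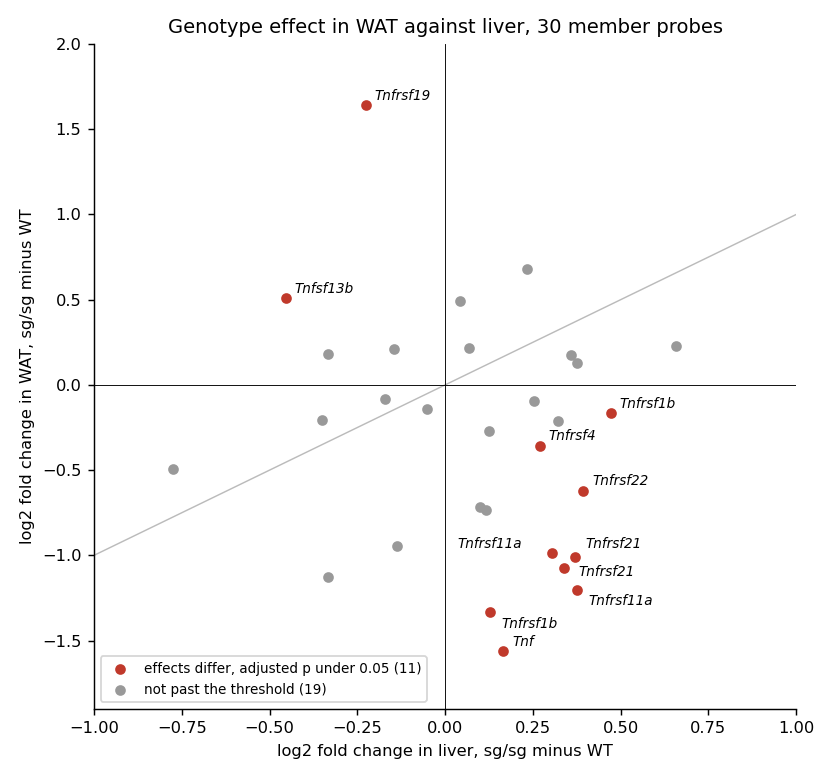
Log2 fold change of sg/sg over WT in WAT (y axis) against that in liver (x axis) for the 30 member probes tested in both tissues, with a line of equal effects. Red points, 11 of 30, differ between tissues at an adjusted p of 0.05; 9 lie below the line at the lower right or right, and Tnfrsf19 and a Tnfsf13b probe lie above it. With normexp correction the Tnfrsf22 and second Tnfrsf1b differences become 0.058 and 0.020, and the Tnf difference becomes -0.24 and is not called.

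Other genes of the pathway were counted in lists, with each gene taken by its brightest probe. Of 77 pathway genes measured in WAT, 3 were higher and 25 lower, beside the 12.8% and 9.14% of all probes. Of 65 measured in liver, 7 were higher and 2 lower, beside the 8.1% and 6.49% of all liver probes. Receptors of the family under other names had 3 lower and 0 higher of 8 in WAT: CD40 at -0.75 (SE 0.12, adjusted p = 0.00284), the ectodysplasin receptor Eda2r at -0.79 (SE 0.14) and the neurotrophin receptor Ngfr at -0.86 (SE 0.16). Of 5 ligands under other names none was called in WAT, with lymphotoxin alpha (Lta) at 0.70 (SE 0.27, adjusted p = 0.0862). These 2 lists include Cd70, Cd27 and Relt, which are also members.

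Adaptors and death machinery had 2 genes higher and 5 lower of 18 in WAT. Ripk3, the kinase of necroptosis, changed by -1.08 (SE 0.14, adjusted p = 0.0013), its substrate Mlkl by -0.69 (SE 0.16), and the adaptors Traf3 and Traf1 by -0.58 (SE 0.11) and -0.76 (SE 0.18). In NF-kB signalling 1 gene was higher and 6 lower of 20. The A20-binding inhibitor Tnip3 changed by -3.00 (SE 0.35, 8.02-fold lower), and the related Tnip1 averaged 1.48 in sg/sg WAT and 2.48 in WT WAT (adjusted p = 0.00144). Also lower were the kinase Map3k14, by -0.67 (SE 0.12), and A20 itself (Tnfaip3), by -0.58 (SE 0.14, adjusted p = 0.0173). The TNF-shedding protease Adam17 changed by -0.72 (SE 0.12, adjusted p = 0.00302) and Adam10 by -0.33 (SE 0.11, adjusted p = 0.0466), which made 2 of 5 shedding genes lower.

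The list of TNF-induced genes had 0 higher and 10 lower of 22 in WAT, with a median of -0.63 against 0.08 for all probes. Whether TNF induces each listed gene was not tested, and the 10 lower genes include Tnfaip8l2 (-1.32, SE 0.25). The monocyte attractant Ccl2 averaged 1.54 ± 0.42 in sg/sg WAT and 4.15 ± 0.52 in WT WAT (SD, n = 5 each), a change of -2.60 (SE 0.27, 6.08-fold lower, adjusted p = 0.00066). Ccl7 changed by -2.60 (SE 0.29), the neutrophil attractant Cxcl1 by -1.85 (SE 0.23) and Tnfaip2 by -1.25 (SE 0.20). In liver 3 of 16 were called, all higher: the NF-kB cofactor Bcl3 at 0.78 (SE 0.12, adjusted p = 0.00701), Tnfaip2 at 0.77 (SE 0.18) and the adhesion molecule Icam1 at 0.65 (SE 0.16). Also called higher in liver were the adaptors Traf2 at 0.68 (SE 0.15) and Traf6 at 0.35 (SE 0.09), Ripk3 at 0.64 (SE 0.19) and the NF-kB subunit Rela at 0.33 (SE 0.08). Rela was likewise called higher in WAT, at 0.34 (SE 0.10, adjusted p = 0.0412). Lower in liver were Traip at -0.76 (SE 0.20) and Adam10 at -0.53 (SE 0.14). With slide as a fixed block 3 of all liver probes were called, against 3601 in the main analysis.

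**Figure D5:**
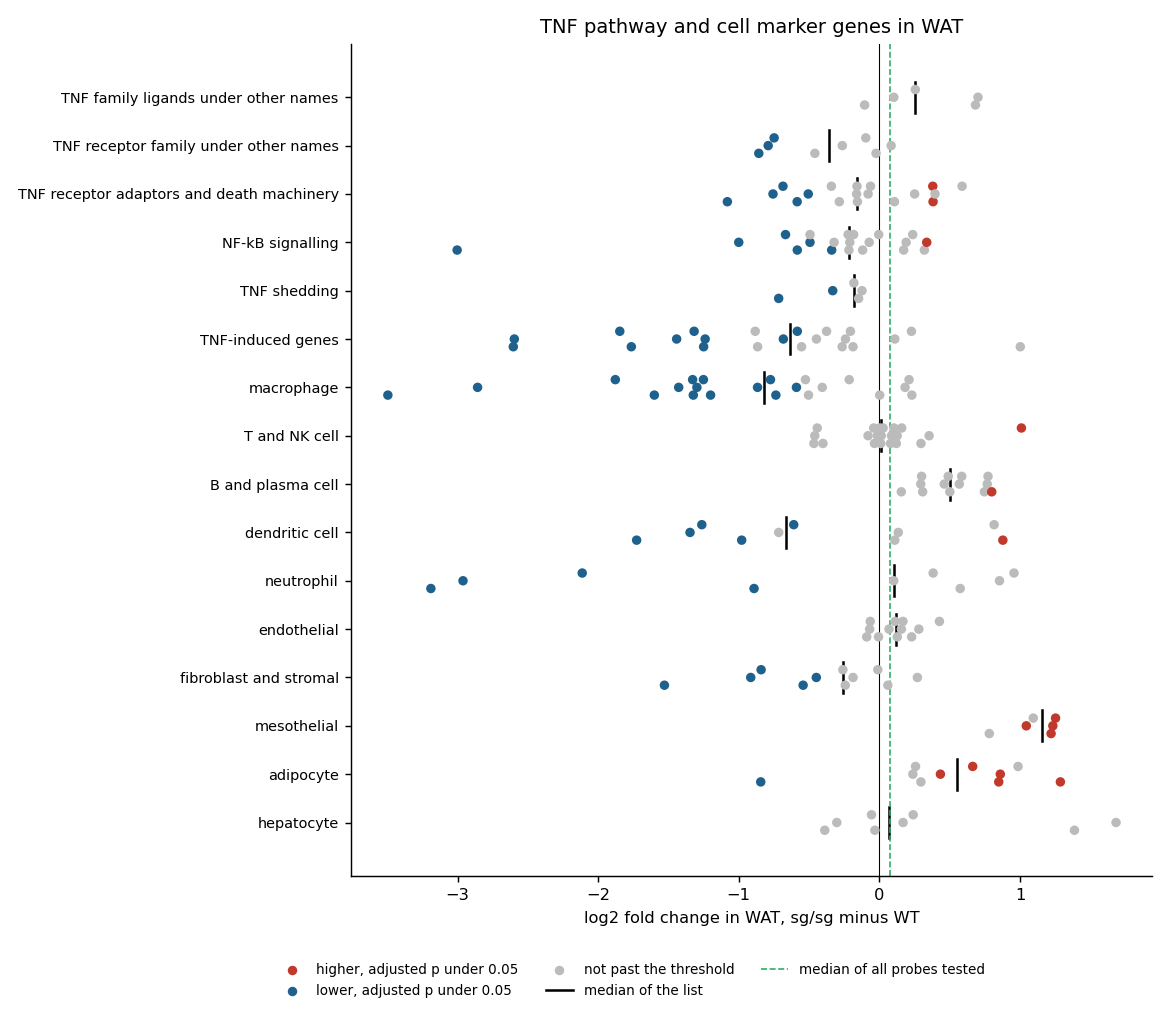
Log2 fold change of sg/sg over WT in WAT (x axis) of each gene in the pathway lists and cell marker lists, 1 point per gene, with a bar at each list's median and a dashed line at the median of all probes tested. Macrophage and TNF-induced lists lie to the left, with medians of -0.82 and -0.63, and the mesothelial list to the right, with a median of 1.16.

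Cell markers moved beside these results in WAT, and their part in them was not tested. In whole tissue, fewer cells of a type and less RNA per cell cannot be told apart. Of 22 macrophage markers 14 were lower and 0 higher, with Itgax at -3.50 (SE 0.40), Trem2 at -2.86 (SE 0.43), Tyrobp at -1.60 (SE 0.25) and Mrc1 at -0.74 (SE 0.12). Their summed linear level was 185.7 to 252.8 in sg/sg WAT and 259.9 to 439.6 in WT WAT. The brightest markers count most in this sum, and the brightest, Lyz2, averaged 6.88 in both genotypes. Dendritic cell markers had 1 higher and 5 lower of 10 and neutrophil markers 0 higher and 4 lower of 9. The other 5 neutrophil markers had estimates of 0.10 to 0.96 that did not pass, and the median of the list was 0.10 against 0.08 for all probes. Its summed level was 0.773 to 1.55 in sg/sg WAT and 2.16 to 2.49 in WT WAT, a sum in which the brightest markers count most: S100a8, called lower, averaged -2.62 in sg/sg WAT and 0.35 in WT WAT, and S100a9, not called, differed by 0.57 (SE 0.23). Fibroblast markers had 5 lower of 11.

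Markers of B and plasma cells were mostly not called in WAT, at 1 higher and 0 lower of 13 (Pou2af1, 0.80, SE 0.22). Their estimates ran from 0.16 to 0.80, with a median of 0.50 against 0.08 for all probes. The B cell list includes the member Tnfrsf13c. T and NK cell sums were 7.94 to 12.5 in sg/sg WAT and 6.10 to 9.98 in WT WAT. Markers of mesothelial cells, which line body cavities and visceral organs, had 4 higher of 6 and summed to 22.6 to 35.7 in sg/sg WAT and 6.72 to 28.9 in WT WAT. Adipocyte markers had 5 higher and 1 lower of 10. In liver 5 of 21 macrophage markers were higher and 0 lower, with sums of 162.5 to 215.1 in sg/sg liver and 99.9 to 177.9 in WT liver, and C1qa at 0.80 (SE 0.17) had the smallest p.

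Promoters were scanned because Rora encodes a DNA-binding receptor and NF-kB acts downstream of the family. RefSeq promoters of GRCm38.p6, 250 bases before to 50 after each start, matched 27 of 35 ligand and receptor genes, with 31 promoters. The ROR element (AANT followed by AGGTCA or by GGGTCA, both strands) was in 0 of 31, against 0.435% of all 32851 promoters. The NF-kB element (GGGA or GGGG, then NN, then TTCC, both strands) was in 1 of 31 (3.23%), against 2.92% of all promoters. That promoter belongs to Tnfrsf9, and its match begins 43 bases before the start. The bases before the starts of Tnf, where neither element was matched, and of Tnfrsf9 are shown, both genes having been called lower in WAT (Tnfrsf9 with the opposite sign under normexp correction); capitals mark the match:
Tnf (GRCm38.p6 chr17:35202008-35202257, minus strand): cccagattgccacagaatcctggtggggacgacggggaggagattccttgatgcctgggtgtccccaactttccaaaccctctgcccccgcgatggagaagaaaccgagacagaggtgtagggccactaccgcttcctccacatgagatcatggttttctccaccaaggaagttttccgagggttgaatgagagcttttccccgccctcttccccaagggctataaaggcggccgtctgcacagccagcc
Tnfrsf9 (GRCm38.p6 chr4:150927899-150927998, plus strand): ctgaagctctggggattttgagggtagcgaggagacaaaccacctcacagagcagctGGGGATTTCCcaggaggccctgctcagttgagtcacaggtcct
A match is a run of letters in this window and not a shown binding site, and its absence says nothing of sites elsewhere.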

How the data were processed

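Gene expression was measured on 20 one-colour Agilent arrays. The authors deposited a processed intensity per spot, made per the file headers with Agilent Feature Extraction 9.5.3.1 (9.5 in the submitters' processing notes), with background subtraction and a surrogate for dim spots; no scaling between arrays is recorded. The deposited value table held the same intensities, so it moved no value. Levels are log2 of that intensity minus the array's 75th percentile, with control spots and outlier flags left out and spots of a probe averaged. Probes well above background on at least 4 of 10 arrays of a tissue and missing on at most 2 were tested, 32315 in WAT and 24675 in liver, with lmFit and eBayes of limma 3.58.1 (R 4.3.3), two-sided. The tissue difference is the interaction term over all 20 arrays.

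Each fit was also tested on simulated arrays with 200 changed probes: with a log2 change of 1 they recovered 61.0% in WAT, 79.0% in liver and 62.0% for the tissue difference, and with 2 they recovered 85.0%, 94.0% and 91.0%. False calls numbered 8, 11 and 17. The simulation held no slide effect and changed 200 of 32268 WAT probes, while 21.9% of probes were called in the WAT data. These recovery rates therefore need not hold for the data. Alternatives were normexp correction (offset 50), quantile and median scaling, other filters, 1 probe per gene, slide or replicate number as a block, single slides and leaving out each array. Same-numbered sg/sg and WT arrays did not deviate together (correlations of -0.14 to 0.17), so the numbers were not treated as pairs. The design text gives 5 mice per genotype without tying arrays to them, so p-values measure the spread between these arrays, and the number of arrays limits the precision. Members, gene lists and tests were chosen with earlier results of these data known. Values on every array are given for called members (at most 12 genes by adjusted p in a tissue), Tnf, Tnfrsf1a, Tnfrsf1b and members called for the tissue difference; Tnfsf14 was added after its values were seen. From each list up to 4 genes with the smallest p are named, and Rela, Tnfaip8l2, Lyz2 and S100a9 are named in WAT besides. No genome of the probes' build was used here. The count of called T and NK cell markers in WAT is not reported here.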

Additional observations from a re-analysis of the deposited data

Results flagged for a closer look

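Single arrays stood apart from the other 4 of their group for 12 of the 116 member groups checked, by a gap larger than Dixon's 95% limit; chance flags about 1 in 20 groups. In liver, sg/sg replicate 3 was low for Tnf, at -6.24 against -5.17 to -4.77 on the others, and for Tnfrsf13c, at -6.01 against -5.23 to -4.92. Tnfrsf12a was low on sg/sg replicate 1, at 0.82 against 1.66 or more on the others. Tnfrsf21 was high on sg/sg replicate 2, at -0.61 against -1.40 to -1.19, and Tnfrsf18 was high on WT replicate 1, at -2.24 against -3.03 to -2.88.

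In WAT, sg/sg replicate 4 was low for Tnfrsf11b, at -0.50 against 0.06 to 0.17, and for Tnfrsf7, at -5.15 against -3.91 to -3.65. Tnfsf10 was high on sg/sg replicate 5, at -2.21 against -2.78 to -2.66, and low on WT replicate 1, at -3.54 against -2.77 to -2.49. WT replicate 2 was high for Tnfrsf13b, at -0.96 against -1.31 to -1.22, and for Tnfsf7, at -5.24 against -8.21 to -7.72. Tnfrsf1a was low on WT replicate 3, at 4.32 against 4.52 to 4.54.

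The genotype effect in WAT minus that in liver passed the interaction test for 11 probes. It was -1.73 for Tnf, -1.46 and -0.64 for Tnfrsf1b, -1.41 and -1.38 for Tnfrsf21, -1.58 and -1.29 for Tnfrsf11a, -1.02 for Tnfrsf22 and -0.63 for Tnfrsf4. It was 1.87 for Tnfrsf19 and 0.96 for the second Tnfsf13b probe. That probe was well above background on 0 sg/sg liver arrays, so its liver effect and the size of this difference are not fully measured. Tnf was well above background in liver on 1 sg/sg array and 3 WT arrays. With normexp correction its difference was -0.24 and the call was lost.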

How the results depend on the processing

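The count of 17 WAT calls was 15 with median scaling, 17 with quantile normalization and 13 with slide as a fixed block. The shares of all WAT probes called were 17.5%, 21.3% and 18.8% in that order, against 21.9% in the main analysis. The member count was 13 to 18 when 1 array was left out, beside 15.6% to 31.1% of all probes. It was 3 with normexp correction, beside 4.62% of all probes, and 0 within slide 1. Within that slide 14 member probes had an unadjusted p under 0.05, beside 4786 of all 32315 probes. Slide 2 held only 1 WT array and slide 3 only 1 sg/sg array, so no counts are given for them. All 17 kept their sign within each slide. In liver the 2 calls became 4 with normexp correction, 1 with 1 probe per gene or slide as a random block, and 0 with no filter, with slide as a fixed block or within slide 2. At an unadjusted p under 0.05 there were 14 member probes with no filter, beside 12437 of all 41153 probes. With slide as a fixed block there were 0, beside 2002 of 24675. The main analysis had 9, beside 7992 of 24675. Leaving out 1 liver array gave 0 to 4: 0 without sg/sg replicate 2, WT replicate 3 or WT replicate 4, and 4 without WT replicate 5. The 11 tissue differences became 4 with normexp correction and 4 with slide as a fixed block, and 10 to 12 when 1 array was left out. Of all 24344 probes, 19.9% were called in the main analysis, 11.1% with normexp correction and 3.16% with slide as a fixed block. That share was 16.2% to 25.7% when 1 array was left out.

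Same-numbered arrays were not shown to be pairs. With replicate number as a block, limma called 13 member probes in WAT, 0 in liver (9 at an unadjusted p under 0.05) and 10 for the tissue difference. Over all liver probes it called 1658, against 3601 in the main analysis. Over all WAT probes it called 13.9%, against 21.9%, and for the tissue difference 16.5%, against 19.9%.

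With normexp correction the WAT sign turned for Tnfrsf10b (0.30, 0.83 and 0.16), Tnfrsf11a (0.020), the second Tnfrsf1b probe (0.43), Tnfrsf22 (0.37), Tnfrsf23 (0.695), Tnfrsf26 (0.50) and Tnfrsf9 (0.80), and the tissue difference turned for that Tnfrsf1b probe (0.020) and Tnfrsf22 (0.058). The second Tnfrsf1b probe also turned within WAT slide 3 (0.17). Tnfrsf1a turned in the tissue difference with median scaling (0.0265). In liver Tnfrsf1a turned without WT replicate 2 (0.047) or sg/sg replicate 4 (0.046), with -0.12 to 0.047 over the arrays left out, and the first Tnfrsf1b probe turned when slide was a fixed block or within slide 2 (-0.018 in both). The cause was not tested. Over all WAT probes normexp correction left 1492 calls, against 7083. Relative to the median of all WAT probes under that correction, 13 of the 17 called probes kept their sign. Where a group was not well above background, as for Tnfrsf8 in 4 WT WAT arrays, the size of a difference is not fully measured.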
